A study of Mus musculus with 4 samples.

Results

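The laminin chains and integrin subunits of the peripheral nerve basal lamina were followed in RNA sequencing of mouse sciatic nerve. Members were taken by gene symbol: Lama, Lamb or Lamc with 1 digit, Itga with a number or letter, and Itgb with 1 digit. This gave 37 genes, 11 laminins and 26 integrins, of 24062 gene symbols in the table, and 35 of the 37 reached 1 CPM (the read count scaled to library size, with TMM factors) in at least 1 library. The nerves came from 4-month-old mice of strain C57BL/6 and 4 genotypes, with 1 library for each genotype. WT mice are labelled C57BL/6 with no further allele. PKO mice are P2RY14-/-, which removes the UDP-glucose receptor. NF1 mice carry Nf1fl/fl with Dhh Cre, and PKO-NF1 mice are P2RY14-/- and carry Nf1fl/f with Dhh Cre. Nf1 encodes neurofibromin, a brake on RAS, and Dhh-Cre is active in the Schwann cell lineage, so cells without a history of Cre keep Nf1. No allele is shared by all 4 groups, and P2RY14-/- is shared by PKO and PKO-NF1. The source of the NF1 library is named a repeat. How many animals a library holds, and of which sex, is not given.

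Each Schwann cell with its axon, each perineurial layer and each vessel of a nerve is wrapped in a basal lamina. Laminins are trimers of an alpha, a beta and a gamma chain that polymerise into this sheet, and integrins are receptors of an alpha and a beta subunit that anchor cells to it. Laminins with the alpha2 or alpha4 chain are needed for Schwann cells to sort and myelinate axons, integrin alpha6 pairs with beta1 or beta4 to bind laminin, and integrin beta2 and beta7 serve leukocytes. Members were grouped by the cell type each is best known for in nerve. Several are expressed by more than one cell type, and bulk RNA cannot tell fewer cells of a type from less RNA per cell.

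The sequence before the start of 3 members is shown. Lama5 (laminin alpha5) and the collagen receptor subunit Itga10 had less RNA in both P2ry14-null libraries, and Itgb6, a partner of integrin alphav, was high in 1 library alone. RefSeq sequences on GRCm38.p6 were found for 23 of the 37 members, at 26 start sites. The windows hold the 250 bases before the RefSeq start, printed without bases that GENCODE M21 places in an exon, which leaves 217 for Itga10 and 210 for Itgb6. Gene spans given further on are GENCODE's, so their ends can differ from these starts. Each sequence is written 5′ to 3′ on the gene's strand. Capitals mark GGGCGG, a GC box, on either strand. The other motifs searched on both strands were TATAAA for the TATA box, the AP-1 motif TGANTCA, plus the SOX-type motif ACAAAG. These 3 windows hold none of those.
Lama5, chr2:180225860-180226109, minus strand: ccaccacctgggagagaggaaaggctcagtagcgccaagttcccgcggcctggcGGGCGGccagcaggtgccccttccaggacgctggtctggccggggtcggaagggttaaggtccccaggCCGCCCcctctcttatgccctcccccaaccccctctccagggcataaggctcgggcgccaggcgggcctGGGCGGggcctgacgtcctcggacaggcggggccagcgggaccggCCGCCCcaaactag
Itga10, chr3:96645367-96645583, plus strand: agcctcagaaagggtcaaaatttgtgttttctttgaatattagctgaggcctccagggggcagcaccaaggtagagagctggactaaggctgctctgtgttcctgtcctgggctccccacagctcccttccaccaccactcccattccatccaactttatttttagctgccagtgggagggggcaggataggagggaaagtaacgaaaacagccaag
Itgb6, chr2:60722644-60722853, minus strand: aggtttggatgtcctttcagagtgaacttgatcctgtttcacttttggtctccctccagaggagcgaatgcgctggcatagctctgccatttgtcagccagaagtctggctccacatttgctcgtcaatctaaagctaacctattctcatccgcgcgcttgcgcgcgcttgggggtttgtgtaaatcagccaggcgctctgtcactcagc
Over the full 250 bases, the Lama5 window held 4 GC boxes and 19 CpG dinucleotides with a GC content of 72.4%. The Itga10 window had 2 CpG dinucleotides and a GC content of 48.0%, and the Itgb6 window 11 and 52.0%. The median over 32851 windows of the same length was 6 CpG dinucleotides and 52.4% GC. A GC box was in 32.7% of all windows and in 9 of the 26 of the members. The TATA box was in 12.4% of all windows and in 0 of the 26, the AP-1 motif in 6.75% and 1, and the SOX-type motif in 16.5% and 2.

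Total counts lay between 14111201 (WT) and 20362685 (PKO), and 3 counts, the level at which a count of 0 entered a ratio, came to 0.152 to 0.183 CPM. With 1 library per genotype there was no replicate check on any difference. Ratios set 1 library against another, and their 95% intervals hold counting error alone. P2ry14 stood at 37.6 (WT), 10.9 (PKO), 65.3 (NF1) and 10.6 CPM (PKO-NF1). Nf1 stood at 72.8 (WT), 41.0 (PKO), 63.4 (NF1) and 20.5 CPM (PKO-NF1), so its gene total set NF1 little apart from WT and was lower in PKO, which keeps Nf1, than in NF1. A gene total also counts reads outside the floxed part, so it checks these labels only in part. The 20 skeletal muscle markers made up 6.77% of counts in NF1 and 0.0160% to 0.137% in the other libraries. The counts of ribosomal protein genes ranged from 3.64% (WT) through 6.75% (NF1) and 11.1% (PKO-NF1) to 14.5% (PKO). Xist had 39699 counts in NF1 and 9 in PKO-NF1, and Y-linked Ddx3y had 0 in NF1 and 842 in PKO-NF1, so these 2 libraries differ in sex. WT and PKO held both transcripts (Xist 10304 and 4948 counts, Ddx3y 813 and 396), so RNA of both sexes was in each. The part of sex in the ratios was not tested. The nerve markers Mbp, Prx, Sox10, Cldn1, Pecam1 and Col1a1 were detected in all 4 libraries.

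Laminin and integrin RNA was dominated by a few chains. Compared per transcript length, the highest levels in WT were those of Itgb1, the common beta subunit, at 112 CPM per kilobase, Itga6 at 85.4, Itgb4, the laminin-binding beta subunit with a long cytoplasmic tail, at 74.8, Lamb2 at 74.1, Lamb1 at 62.5 and Lamc1, the gamma chain of most nerve laminins, at 50.9 CPM per kilobase. Itga7, a laminin receptor of Schwann cells and muscle, followed at 37.2, the alphav partner Itgb5 at 35.5, Lama4 at 34.7 and Lama2 at 21.1 CPM per kilobase. Lama1, the alpha chain of embryonic laminin, had 1 to 3 counts in every library, and Itgad, a leukocyte alpha subunit, had 3 counts in WT, 1 in NF1 and 0 in PKO and PKO-NF1. Lama3 and Lamb3, chains of epithelial laminin, stayed between 2.14 and 7.26 CPM. All laminins together summed to 1764 (WT), 1690.3 (PKO), 1061 (NF1) and 1149 CPM (PKO-NF1). All integrins together summed to 2097 (WT), 1813 (PKO), 1411 (NF1) and 1459 CPM (PKO-NF1). Both sums were lower in each library with floxed Nf1 than in either library without it.

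**Figure D1:**
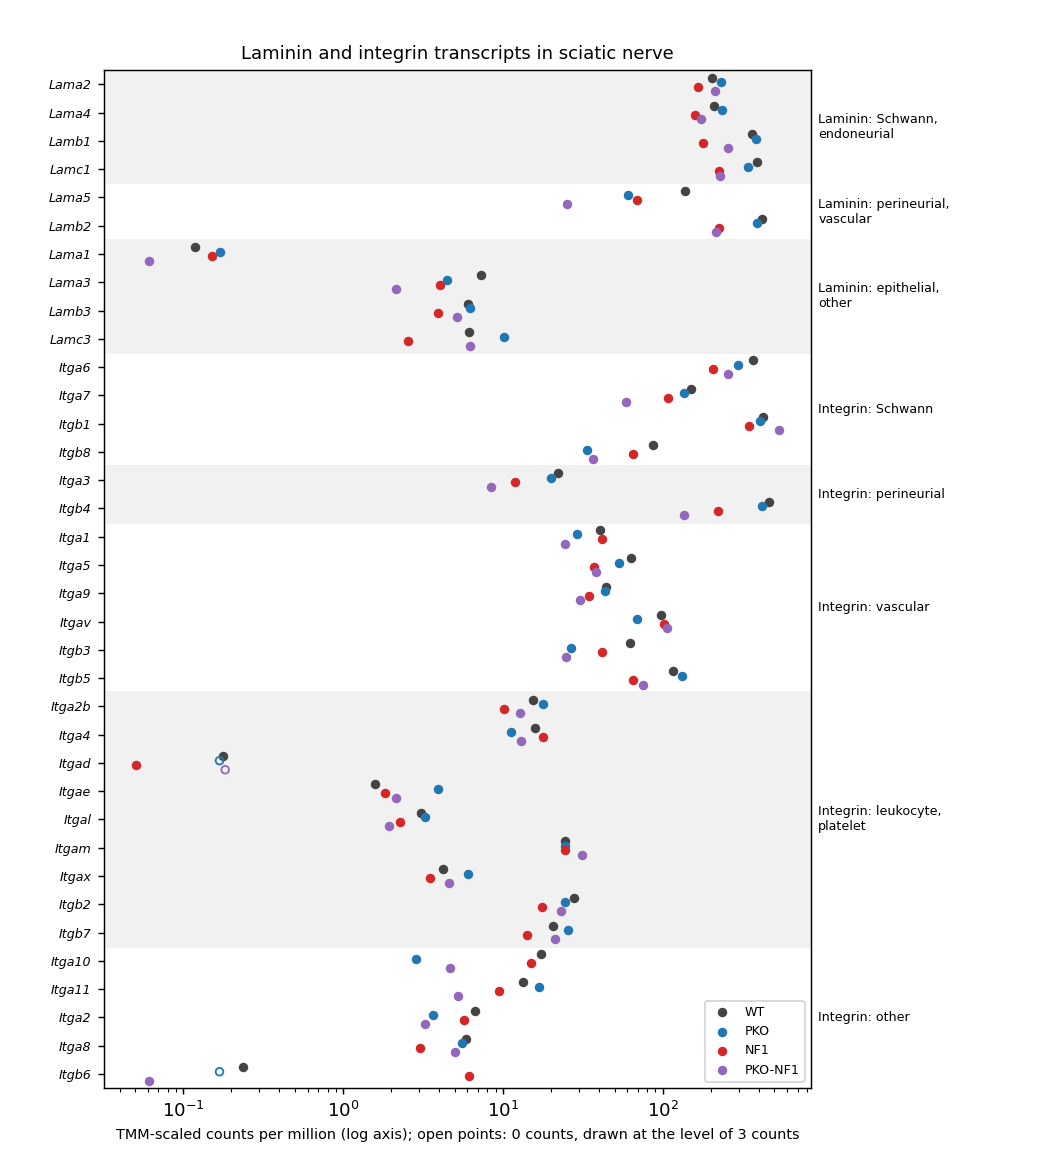
Level of the laminin and integrin genes shown (rows, grouped by cell type) in the 4 libraries, as TMM-scaled CPM on a log axis. Each point is 1 library, and an open point marks 0 counts, drawn at the level of 3 counts. Itgb6 is at 6.14 CPM in NF1 and at most 0.236 CPM in the other libraries, and Itga10 is lower in PKO and PKO-NF1 than in WT and NF1.

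NF1 was set against WT to see what accompanies Nf1 loss in the Dhh-Cre lineage, and PKO-NF1 against PKO to see it where P2ry14 is absent. The 2 pairs share no library. All 10 measured laminins had a log2 ratio below 0 in NF1 vs WT, with a median of -0.81 against -0.00061 over all genes. In PKO-NF1 vs PKO 9 of 10 were below 0, with a median of -0.58 against -0.0072. Once trends over length of transcript and over GC were taken out (described further on), these laminin medians were -0.17 and 0.056, and 4 of 10 laminins were below 0 in both pairs against 9 of 10 before. A gene was called if the 2 libraries differed 2-fold or more and the interval left out 1. By that rule 4 members were lower and 1 higher of 35 in NF1 vs WT, where 16.7% of all genes were called in either direction, 10.4% higher and 6.31% lower. In PKO-NF1 vs PKO 6 members were lower and 0 higher of 34, where 15% of all genes were called, 5.24% higher and 9.78% lower. In either direction, the members' share was near that of all genes in both pairs. At 1.5-fold, 15 members were lower and 1 higher in NF1 vs WT, where 35.9% of all genes passed (16.7% lower). In PKO-NF1 vs PKO 12 were lower and 2 higher at 1.5-fold, where 36% passed (20.3% lower and 15.7% higher).

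Among Schwann cell laminins, Lamb1 (laminin beta1; chromosome 12, 31265234 to 31329644) was at 362 (WT), 384 (PKO), 179.6 (NF1) and 257 CPM (PKO-NF1). It was 2.01-fold below WT in NF1 (1.93 to 2.10) and 1.49-fold below PKO in PKO-NF1 (1.44 to 1.55), so only the first passed the 2-fold rule. Lamc1 was at 388 (WT), 342 (PKO), 225 (NF1) and 227 CPM (PKO-NF1), with log2 ratios of -0.78 and -0.59 in the 2 Nf1 pairs. The WT and PKO libraries were high and both Nf1 libraries low for these chains. Without the trends the log2 ratios in the same pairs were -0.51 and -0.07 for Lamb1, whose call was lost, and -0.20 and 0.11 for Lamc1. The alpha chains differed less. Lama4 was at 209.8 (WT), 236 (PKO), 160.4 (NF1) and 172 CPM (PKO-NF1). Lama2, the alpha chain whose loss causes a congenital muscular dystrophy with neuropathy, was at 202 (WT), 231 (PKO), 167 (NF1) and 212 CPM (PKO-NF1). Skeletal muscle also expresses Lama2, and the NF1 library with the muscle transcripts had the lowest Lama2 level; the part of muscle in that level was not tested.

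Lama5 and Lamb2 form laminins of vessel walls and perineurium. Lama5 (chromosome 2, 180176373 to 180225859, minus strand) was at 138.6 CPM in WT, 68.8 in NF1, 60.9 in PKO and 25.3 in PKO-NF1. It was the only member called in all 4 comparisons: 2.01-fold below WT in NF1 (1.88 to 2.16), 2.41-fold below PKO in PKO-NF1 (2.15 to 2.70), 2.27-fold below WT in PKO (2.11 to 2.45) and 2.72-fold below NF1 in PKO-NF1 (2.43 to 3.04). Lama5 also has the longest transcript of all members, 11388 nucleotides, with a GC content of 59.9%. With trends over length and GC removed its log2 ratio was -0.21 in NF1 vs WT, -0.0013 in PKO-NF1 vs PKO, -0.30 in PKO vs WT and -0.04 in PKO-NF1 vs NF1, and no call remained. Lamb2 was at 417 (WT), 391 (PKO), 226 (NF1) and 215 CPM (PKO-NF1), 1.84-fold (1.78 to 1.91) and 1.82-fold (1.75 to 1.90) lower in the Nf1 pairs. Little of either Lamb2 difference was left without the trends, at log2 -0.14 and -0.016 in the same order. Endothelial markers were also lower in both Nf1 pairs, but not in PKO vs WT. Their 12 genes summed to 819.6 (WT), 981 (PKO), 348 (NF1) and 588 CPM (PKO-NF1), and their part in the laminin values was not tested. Of the remaining chains, Lamc3 was at 6.14 (WT), 10.2 (PKO), 2.54 (NF1) and 6.22 CPM (PKO-NF1), 2.42-fold below WT in NF1 (1.71 to 3.46). Lama3 was at 7.26 (WT), 4.50 (PKO), 4.06 (NF1) and 2.14 CPM (PKO-NF1), 2.11-fold below PKO in PKO-NF1 (1.40 to 3.23). Neither of these 2 calls remained with the trends removed, at log2 -0.53 for Lamc3 and -0.30 for Lama3.

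**Figure D2:**
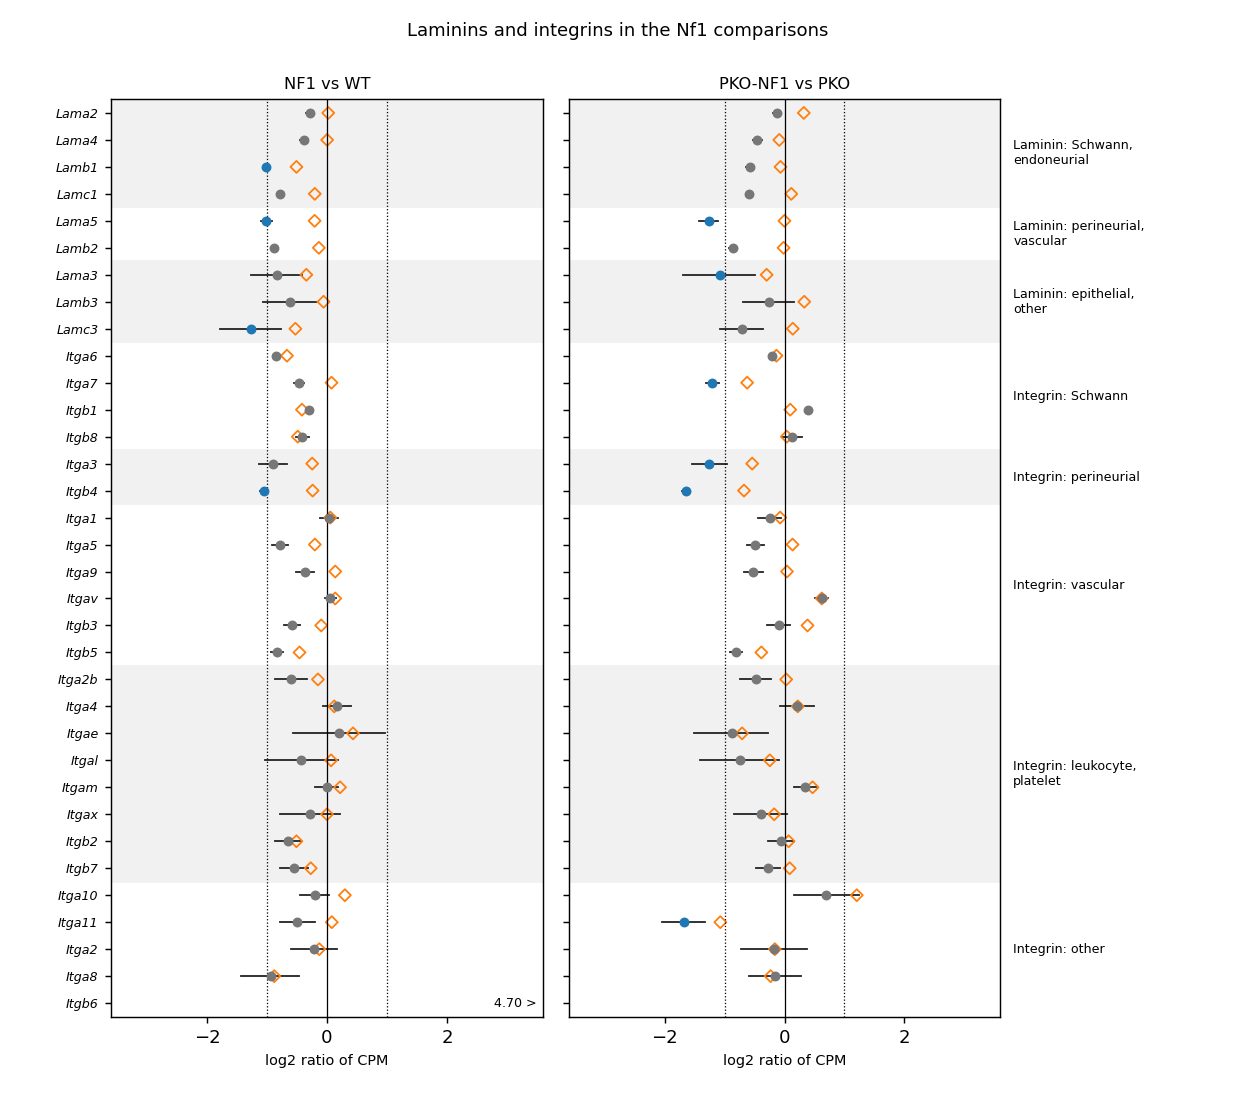
Log2 ratios of CPM in NF1 vs WT (left) and PKO-NF1 vs PKO (right), 1 row per member shown. Filled points are ratios with their 95% counting intervals (blue lower, grey neither), open diamonds are ratios with trends over length and GC removed, and dotted lines mark 2-fold. Itgb6 in NF1 vs WT lies off the axis at 4.70, and most laminin diamonds lie nearer 0 than the filled points.

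Integrins had a median log2 ratio of -0.43 over 25 in NF1 vs WT and of -0.26 over 24 in PKO-NF1 vs PKO. Without the trends these medians were -0.096 and -0.022, and 6 of 24 integrins were below 0 in both pairs against 16 of 24 before. Itgb4 (chromosome 11, 115974709 to 116008412), the beta4 subunit of perineurium and myelinating Schwann cells, was at 464 (WT), 420.0 (PKO), 223 (NF1) and 135.0 CPM (PKO-NF1). Its levels in the 2 Nf1 libraries lay below both others, 2.08-fold below WT in NF1 (2.0 to 2.16) and 3.11-fold below PKO in PKO-NF1 (2.97 to 3.26). Itga3, a laminin receptor subunit of perineurial and epithelial cells, was at 22.1 (WT), 20.1 (PKO), 11.9 (NF1) and 8.42 CPM (PKO-NF1), which is 1.86-fold lower (1.58 to 2.20) and 2.38-fold lower (1.95 to 2.92). Itgb4 and Lama5 were called lower in both Nf1 pairs, 2 of 34 members (5.88%), beside 2.62% of all genes. With the trends removed Itgb4 had log2 ratios of -0.24 and -0.68 and Itga3 of -0.25 and -0.54, below 0 in both pairs but short of 2-fold. Myelinating Schwann cell markers summed to 22848 (WT), 33112 (PKO), 7314 (NF1) and 17660.0 CPM (PKO-NF1). Schwann lineage markers summed to 2596, 1984, 2211 and 3072 CPM in the same order. Perineurial markers, Itgb4 among them, summed to 1221, 1277, 901 and 931 CPM. That last sum holds the Itgb4 level itself, so it does not show how the other perineurial markers differed. The part of these cells in the Itgb4 value was not tested.

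The other Schwann cell integrins did not share a pattern. Itga6 was at 368 (WT), 296 (PKO), 205 (NF1) and 257 CPM (PKO-NF1), 1.80-fold below WT in NF1 (1.73 to 1.87) and 1.15-fold below PKO in PKO-NF1 (1.11 to 1.20). Itgb1 was at 426 (WT), 408 (PKO), 345 (NF1) and 535 CPM (PKO-NF1), its highest level, 1.31-fold above PKO (1.27 to 1.35). Itga7 was at 149 (WT), 136 (PKO), 108 (NF1) and 58.8 CPM (PKO-NF1). It was 2.31-fold below PKO in PKO-NF1 (2.14 to 2.49) and 1.38-fold below WT in NF1 (1.30 to 1.46). Trend removal took the log2 ratios of Itga6, Itgb1 and Itga7 to -0.67, -0.42 and 0.076 for NF1 against WT. For PKO-NF1 against PKO it took them to -0.13, 0.095 and -0.62, and Itga7 was no longer called. Skeletal muscle also expresses Itga7, the muscle transcripts were in the NF1 library, and their part in the NF1 value was not tested. Itga11, a collagen receptor of fibroblasts, was at 13.3 (WT), 16.8 (PKO), 9.44 (NF1) and 5.25 CPM (PKO-NF1). Its difference in PKO-NF1 vs PKO, 3.19-fold lower (2.50 to 4.11), was the only one there to stay called lower with the trends removed (log2 -1.07). Of the vascular integrins 0 of 6 were called in either pair, where 16.7% and 15% of all genes were. Itgb5 was 1.78-fold below WT in NF1 and 1.74-fold below PKO in PKO-NF1, while Itgav had log2 ratios of 0.06 and 0.62.

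Itgb6 (chromosome 2, 60598292 to 60722643, minus strand), the beta6 subunit that pairs with alphav and activates latent TGF-beta in epithelia, stood apart from every other member. It had 121 counts in NF1, 4 in WT, 1 in PKO-NF1 and 0 in PKO, or 6.14 CPM in NF1 and 0.236 CPM in WT. It was 26.0-fold above WT in NF1 (9.90 to 97.0) and 101-fold below NF1 in PKO-NF1 (17.7 to 4007). The 10 epithelial markers summed to 91.8 (WT), 89.8 (PKO), 40.9 (NF1) and 55.8 CPM (PKO-NF1), most of it from Cdh1, and the other 9 to 8.85, 15.3, 13.7 and 13.2 CPM. The keratins Krt5 and Krt14 had 0 counts in all 4 libraries. The part of epithelial RNA in the Itgb6 value was not tested. The muscle transcripts were in the same library, at 65487 CPM for the 20 markers against 1139 in WT, and their part in the Itgb6 value was not tested.

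Of the 9 leukocyte and platelet integrins 8 were measured, and 0 of the 8 were called in either Nf1 pair, beside 16.7% and 15% of all genes. Itgam, the CD11b subunit of macrophages and neutrophils, was at 24.4 (WT), 24.6 (PKO), 24.3 (NF1) and 31.2 CPM (PKO-NF1). Itgb2, the common CD18 subunit, was at 27.8 (WT), 24.3 (PKO), 17.6 (NF1) and 23.2 CPM (PKO-NF1). Macrophage markers summed to 1511 (WT), 2379 (PKO), 1811 (NF1) and 3508 CPM (PKO-NF1) and their part in these levels was not tested. The platelet subunit Itga2b lay between 10.1 and 17.8 CPM, while platelet markers summed to 47.3 CPM in WT, 49.6 in NF1, 143 in PKO-NF1 and 156 in PKO. Itgae, the CD103 subunit of tissue T cells and dendritic cells, was at 1.59 CPM in WT and 3.94 in PKO, 2.47-fold higher (1.56 to 4.01), from 27 and 70 counts. Itgae was at 1.83 CPM in NF1 and 2.14 in PKO-NF1, 1.17-fold higher (0.713 to 1.92), which was not called. T and NK cell markers summed to 7.55 (WT), 14.6 (PKO), 8.93 (NF1) and 18.7 CPM (PKO-NF1), and their part was not tested.

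The comparisons of PKO with WT and of PKO-NF1 with NF1 ask what differs without P2ry14. They share no library with each other but share libraries with the Nf1 pairs. In PKO vs WT 4 members were lower and 1 higher of 35, where 15.3% of all genes were called, 10.1% higher and 5.25% lower. In PKO-NF1 vs NF1 3 were lower and 1 higher of 35, where 21.7% were called, 7.91% higher and 13.8% lower. At 1.5-fold 8 members passed in PKO vs WT beside 31.7% of all genes, and 15 in PKO-NF1 vs NF1 beside 44.1%. The laminin median was -0.02 in the first and 0.16 in the second, and the integrin median -0.14 and -0.18, beside -0.08 and -0.01 over all genes. Trend removal took the laminin medians to 0.45 and 0.71, and the integrin medians changed sign to 0.17 and 0.33.

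Itga10 (chromosome 3, 96645584 to 96664519) was the member with the lowest log2 ratio in PKO vs WT. It was at 17.3 CPM in WT, 14.97 in NF1, 2.87 in PKO and 4.64 in PKO-NF1, with 293, 295, 51 and 76 counts. Both P2ry14-null libraries lay below both others, 6.03-fold below WT in PKO (4.47 to 8.29) and 3.23-fold below NF1 in PKO-NF1 (2.50 to 4.21). With the trends removed the log2 ratios were -2.25 and -1.27, and both calls remained. The gene overlaps the annotated gene Gm42957 on the same strand, so how their reads were assigned is uncertain. Itga10 and Lama5 were called lower in both P2ry14 pairs, 2 of 35 members (5.71%), beside 2.87% of all genes; with the trends removed Itga10 alone was, beside 2.24% of all genes. Itgb8 was at 86.4 CPM in WT, 64.8 in NF1, 33.4 in PKO and 36.6 in PKO-NF1, 2.59-fold below WT in PKO (2.35 to 2.85) and 1.77-fold below NF1 in PKO-NF1 (1.61 to 1.95). Itgb3, the beta3 subunit of vessels and platelets, was at 62.0 CPM in WT, 41.6 in NF1, 26.6 in PKO and 24.8 in PKO-NF1, 2.33-fold lower (2.09 to 2.60) and 1.68-fold lower (1.49 to 1.89). Like Itga10, both had their 2 lowest levels in the P2ry14-null libraries. With the trends removed their log2 ratios were -0.86 and -0.84 in PKO vs WT, and -0.26 and -0.29 in PKO-NF1 vs NF1. Unlike Itga10, neither Itgb8 nor Itgb3 was then called in either pair. Lamc3 went the other way, 2.45-fold above NF1 in PKO-NF1 (1.73 to 3.51) and 1.67-fold above WT in PKO (1.30 to 2.14). With the trends removed its log2 ratios were 2.05 and 1.32. Lama2 was also called higher in PKO-NF1 vs NF1 with the trends removed, at 1.08.

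**Figure D3:**
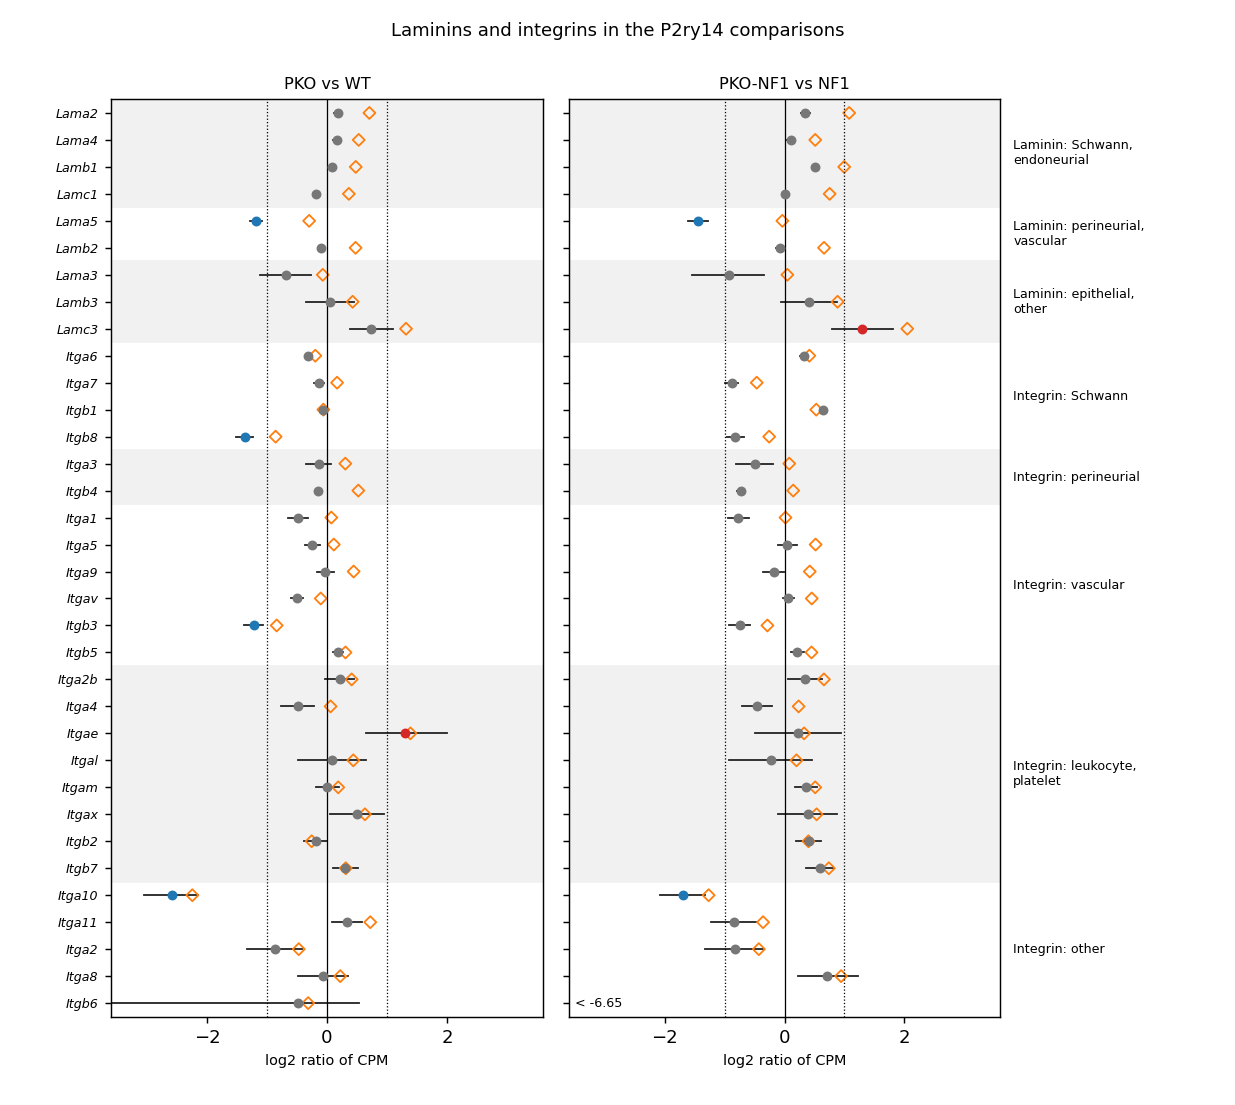
Log2 ratios of CPM in PKO vs WT (left) and PKO-NF1 vs NF1 (right), 1 row per member shown. Filled points are ratios with 95% counting intervals (red higher, blue lower, grey neither), open diamonds have trends over length and GC removed, and dotted lines mark 2-fold. Itga10 lies beyond 2-fold in both panels by points and diamonds, and Itgb6 in PKO-NF1 vs NF1 lies off the axis at -6.65.

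Transcript length moved with all 4 comparisons, and GC content most with the Nf1 pairs. Members kept had long transcripts, with a median of 5959 nucleotides for laminins and 4861 for integrins against 3354 for all genes, and median GC contents of 52.9%, 51.6% and 49.7%. The genes in the highest decile of length had a median log2 ratio of -0.23 in NF1 vs WT, -0.45 in PKO-NF1 vs PKO, -0.49 in PKO vs WT and -0.72 in PKO-NF1 vs NF1, and those in the lowest decile 0.52, 0.01, 1.02 and 0.60. The highest decile of GC content stood at -0.41 for NF1 vs WT and -0.58 for PKO-NF1 vs PKO, and the lowest at 0.46 and 0.55. In PKO vs WT the highest and lowest GC deciles stood at -0.14 and -0.22, and in PKO-NF1 vs NF1 at -0.28 and -0.07. After smooth trends over both were subtracted, 0 members were lower and 1 (Itgb6) higher in NF1 vs WT, where 12.3% of all genes were called (7.68% higher and 4.63% lower), and 1 was lower (Itga11) and 1 higher (Itga10) in PKO-NF1 vs PKO, where 8% were (3.02% higher and 4.98% lower). In PKO vs WT 1 was lower (Itga10) and 2 higher (Itgae and Lamc3), beside 10.7% of all genes (5.92% higher and 4.82% lower), and in PKO-NF1 vs NF1 2 were lower (Itga10 and Itgb6) and 2 higher (Lama2 and Lamc3), beside 16% (6.04% higher and 9.91% lower). Genotype and this trend cannot be told apart with 1 library per genotype.

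**Figure D4:**
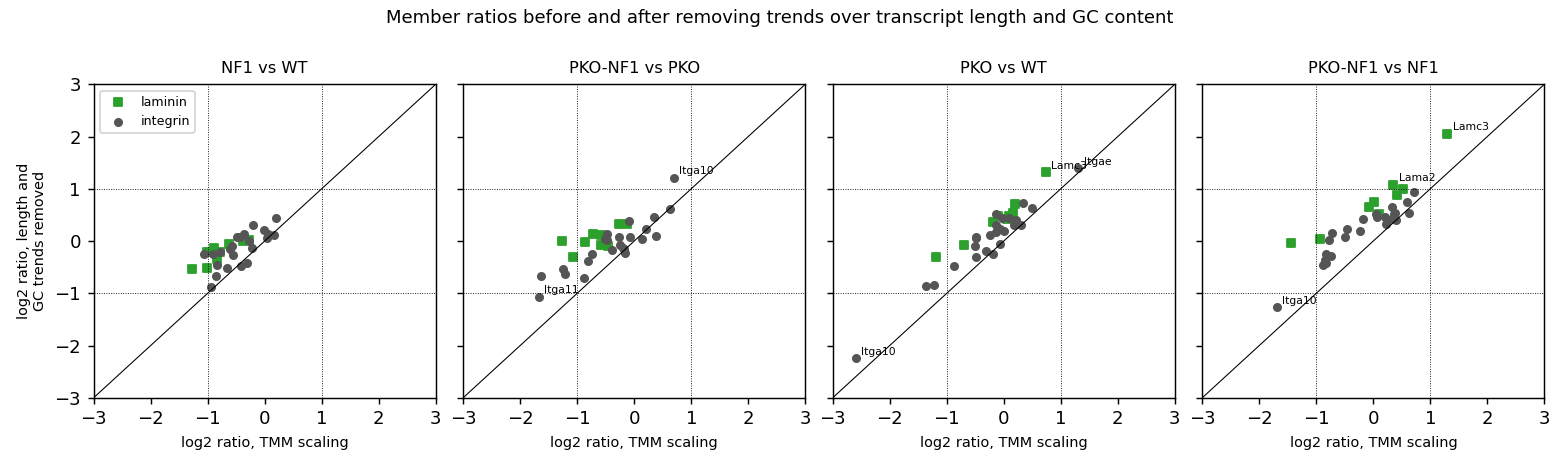
Log2 ratio of the members shown before (horizontal axis) and after (vertical axis) removal of trends over transcript length and GC content, 1 panel per comparison, with laminins as squares and integrins as circles. The diagonal marks no change, dotted lines mark 2-fold, values beyond 3 (Itgb6) are not drawn, and most points lie above the diagonal.

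The mix of chains was compared within each library by level per transcript length. Of laminin alpha-chain RNA, Lama4 made up 50.6% (WT), 56.7% (PKO), 52.7% (NF1) and 53.8% (PKO-NF1). Lama2 made up 30.7%, 34.9%, 34.5% and 41.6% in the same order, and Lama5 17.7%, 7.77%, 12% and 4.19%. Lama5 thus took its largest share in WT and its smallest in PKO-NF1. Among beta subunits of integrins, Itgb1 made up 42.9% (WT), 44.4% (PKO), 52.0% (NF1) and 66.9% (PKO-NF1), and Itgb4 28.8%, 28.0%, 20.7% and 10.4%. Itga6 was the leading alpha subunit in every library, at 37.6% to 48.3%. Dividing by length does not remove the trends over length and GC from these shares. With those removed, Lama5 over Lama4 went from log2 -0.62 to -0.21 in NF1 vs WT and from -0.81 to 0.087 in PKO-NF1 vs PKO. Itgb4 over Itgb1 went from -0.75 to 0.18 and from -2.03 to -0.77 in the same pairs.

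**Figure D5:**
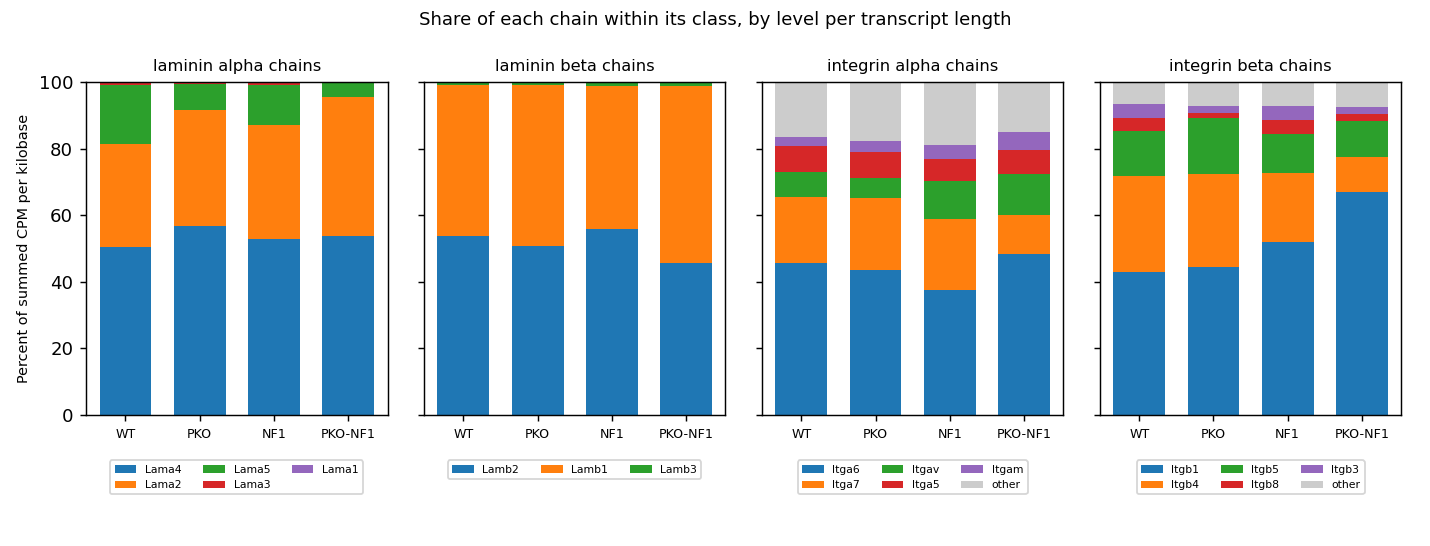
Share of each chain in the summed CPM per kilobase of its class (vertical axis, percent) in the 4 libraries, for laminin alpha and beta chains and integrin alpha and beta subunits, as stacked bars with less abundant integrins joined in grey. The Lama5 share is 17.7% in WT and 4.19% in PKO-NF1, and the Itgb4 share is 28.8% in WT and 10.4% in PKO-NF1. Trends over length and GC are not removed from the shares.

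The 5 lists of other genes of the basal lamina and its cell linkage had medians below 0 in both Nf1 pairs before trend removal. The medians ran from -0.63 to -0.27 in NF1 vs WT and from -0.41 to -0.08 in PKO-NF1 vs PKO. Calls in these lists stand beside 6.31% of all genes lower and 10.4% higher in the first pair, and 9.78% lower and 5.24% higher in the second. Of 19 basal lamina partners 5 were lower and 0 higher in NF1 vs WT (median -0.63), and 3 lower and 0 higher in PKO-NF1 vs PKO (median -0.41); with the trends removed the medians were -0.18 and 0.19. Perlecan, Hspg2, was at 1077 (WT), 688 (PKO), 501 (NF1) and 447 CPM (PKO-NF1), and the collagen IV chain Col4a1 at 427, 541, 201 and 279 CPM. Without the trends, log2 ratios in the 2 Nf1 pairs were -0.35 and 0.78 for Hspg2 and -0.33 and -0.07 for Col4a1. Smoc1, a calcium-binding matrix protein, was at 39.8 (WT), 58.2 (PKO), 12.2 (NF1) and 29.0 CPM (PKO-NF1), and it alone of the list was still called in NF1 vs WT with the trends removed (log2 -1.41). Of the 21 genes of the dystroglycan complex, the other laminin receptor of Schwann cells, 4 were lower and 2 higher in NF1 vs WT and 3 lower and 0 higher in PKO-NF1 vs PKO. Periaxin, Prx, was at 1975 (WT), 2995 (PKO), 681 (NF1) and 656 CPM (PKO-NF1), and its partner Drp2 at 1854, 1933, 916 and 757 CPM. With the trends removed Prx had log2 ratios of -0.84 and -1.42 and Drp2 of -0.66 and -0.99. Of the 2 higher genes, Sgca, a sarcoglycan of striated muscle, was at 33.2 CPM in NF1 and at most 0.649 CPM in every other library.

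Of 11 other laminin receptors, Bcam, a receptor for laminin alpha5, was at 195 (WT), 193 (PKO), 78.6 (NF1) and 85.9 CPM (PKO-NF1), and Sdc3, a heparan sulfate proteoglycan, at 313, 266, 147 and 119.8 CPM. Both were called lower in both Nf1 pairs, and Rpsa, also a ribosomal protein gene, was higher in NF1 vs WT (845 to 1740.1 CPM). With the trends removed none of Bcam, Sdc3 and Rpsa (log2 0.81 in NF1 vs WT) was called. In the 2 Nf1 pairs Bcam was then at log2 -0.997 and -0.73, the first just short of 2-fold, and Sdc3 at -0.40 and -0.38. Integrin adaptors had 3 of 20 lower in NF1 vs WT and 4 of 20 lower in PKO-NF1 vs PKO, with 0 higher. Talin, Tln1, which activates integrins from inside the cell, was at 256 (WT), 254 (PKO), 124 (NF1) and 89.1 CPM (PKO-NF1), and Tns1 at 795, 632, 304 and 222 CPM; with the trends removed 0 of the 20 were called in either pair. Integrin ligands had 3 of 14 lower in NF1 vs WT (Icam2, Fbln5 and Cdh1) and 3 of 14 higher in PKO-NF1 vs PKO (Spp1, Tnc and Postn). Osteopontin, Spp1, was at 538 (WT), 290.1 (PKO), 302 (NF1) and 873 CPM (PKO-NF1). Tenascin C, Tnc, a ligand of several integrins, was at 11.8 (WT), 4.50 (PKO), 14.4 (NF1) and 10.8 CPM (PKO-NF1). It was the ligand still called in PKO-NF1 vs PKO with the trends removed (log2 1.90). For NF1 vs WT, the log2 ratios without the trends were -1.68 for Icam2, -1.32 for Cdh1 and -0.88 for Fbln5. Spp1 went from -0.84 to -1.58 in that pair.

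An additive model over all 4 libraries had 1 residual degree of freedom, so it set each genotype term against the departure from additivity, not against spread between animals. By edgeR's quasi-likelihood test 0 of 34 members passed a Benjamini-Hochberg adjusted p of 0.05 at the Nf1 term (0% of 14105 genes) and 0 of 34 at the P2ry14 term (0.0496%). At an unadjusted p under 0.05 there were 10 and 7 of 34 members, beside 2944 and 3551 of the 14105 genes. The fitted Nf1 log2 change was -1.14 for Lama5 (SE 0.23), -1.07 for Itga3 (SE 0.24) and -1.35 for Itgb4 (SE 0.35), with edgeR adjusted p = 0.168, 0.168 and 0.180. The fitted P2ry14 log2 change was -2.13 for Itga10 (SE 0.35), -1.31 for Lama5 (SE 0.23), -1.10 for Itgb8 (SE 0.24) and -0.98 for Itgb3 (SE 0.23), each with edgeR adjusted p = 0.142. The DESeq2 Wald test called 1 member at the Nf1 term, Itgb4 (lower, DESeq2 adjusted p = 0.0219; 1.85% of all genes), and 2 at the P2ry14 term, Lama5 and Itga10 (both lower; 4.93%), where the smallest DESeq2 adjusted p was 0.00169.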

How the data were processed

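Counts are whole numbers as deposited, in a table of 24062 symbols with a column for each genotype. FastQC 0.11.7, HISAT2 2.0.5, featureCounts 1.5.2 and build mm10 are named in the submitters' processing notes. The sources used here give neither annotation nor strandedness, so counts of members that overlap another gene are uncertain (Itga7 with Mettl7b, Itga1 with Pelo, Itga4 with Cerkl, Itgae with Haspin, Itga10 with Gm42957, Itgam with Gm49368, Itgad with Cox6a2, Lamb3 with Hsd11b1 and G0s2). Members, groups and lists were chosen with earlier results of these data known.

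Counts were scaled to CPM with TMM factors (edgeR 4.0.16), and genes at 1 CPM in at least 1 library were kept (14700). Ratios carry exact conditional (Clopper-Pearson) 95% intervals for counting error; a library at 0 counts enters at 3 counts, and no fold is given where both are at or under 3. A call needs a 2-fold difference and an interval without 1. No molecular identifiers are named in the labels, so PCR copies may count as separate molecules. The additive model used glmQLFit and glmQLFTest on genes at 1 CPM in at least 2 libraries, with Nf1 and P2ry14 status as terms; its SE is the log2 change over the root of F. Transcript length (longest), GC content and coordinates are from GENCODE M21 on GRCm38, which matched 22750 symbols directly and 922 through a synonym; 390 did not match. Trends were splines with 4 degrees of freedom in log10 length and in GC, fitted over all genes per comparison, subtracted and recentred. Named members are those at 5 CPM or more that were called in a comparison and the 4 most abundant of each family; named partners are up to 4 called per direction and list in the Nf1 pairs at 5 CPM or more, ranked on the bound closest to 1. Itgae, Itgam, Itgb2, Itga2b, Lama1, Lama2, Lamb3, Itgb5, Itgav and Itgad were named after their values were seen. Some genes are counted but not reported here by name. Alternatives were DESeq2 1.42.0 size factors and Wald test, total counts, other filters, a 1.5-fold threshold, muscle markers removed, and the trends. The additive model and the ratio intervals were tested on simulated data. For the additive model the simulated spread was set below that fitted here, so its outcome does not carry over to these data.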

Additional observations from a re-analysis of the deposited data

How the results depend on the processing

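DESeq2 size factors, removal of the skeletal muscle markers, no expression filter and a 5 CPM filter left each pairwise count of called members within 1.5 times its value. With the length and GC trends removed, called members went from 5 to 1 in NF1 vs WT, from 6 to 2 in PKO-NF1 vs PKO and from 5 to 3 in PKO vs WT, and stayed at 4 in PKO-NF1 vs NF1. The laminin medians became -0.17 in NF1 vs WT, 0.056 when PKO-NF1 was set against PKO, 0.45 in PKO vs WT and 0.71 in PKO-NF1 vs NF1, and the integrin medians -0.096, -0.022, 0.17 and 0.33, the last changed in sign from -0.18 and the third from -0.14. Total counts alone moved the median of all genes to -0.22 in NF1 vs WT, 0.07 in PKO-NF1 vs PKO, -0.54 in PKO vs WT and -0.18 in PKO-NF1 vs NF1. With them 11 members were called in NF1 vs WT (1 higher, 10 lower) and 7 in PKO-NF1 vs NF1 (1 higher, 6 lower); the laminin median was -1.03 and the integrin median -0.64 in NF1 vs WT, and the integrin median -0.60 in PKO vs WT. The laminin median in PKO-NF1 vs NF1 changed sign with total counts, from 0.16 to -0.0066. A 1.5-fold threshold called 16 members in NF1 vs WT, 14 when PKO-NF1 was set against PKO, 8 in PKO vs WT and 15 in PKO-NF1 vs NF1. In the additive model, members called at the Nf1 and P2ry14 terms were 1 and 2 by DESeq2, 3 and 6 with total counts, and 1 at the P2ry14 term with no expression filter. The cause was not tested. Leaving out the NF1 library, added after seeing the data, gave 6 called members in PKO-NF1 vs PKO and 5 in PKO vs WT, with laminin medians of -0.57 and -0.04 and integrin medians of -0.25 and -0.16. No paired analysis was possible because each genotype has 1 library. Itgad and Lama1 were too low to compare at this depth.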

Other observations

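Ratios between members of the same library, which do not depend on how libraries are scaled, were formed after the values above had been seen and are given as levels per transcript length with 95% counting intervals. Itgb4 relative to Itgb1 was highest in WT at 0.670 (0.649 to 0.692), then 0.632 for PKO (0.612 to 0.653), 0.398 for NF1 (0.383 to 0.413) and 0.155 for PKO-NF1 (0.148 to 0.163). Itga6 relative to Itgb4, its partner in the alpha6beta4 receptor, was 1.14 (WT), 1.02 (PKO), 1.32 (NF1) and 2.74 (PKO-NF1). Lama5 relative to Lama4 was 0.351 for WT (0.333 to 0.370), 0.137 for PKO, 0.228 for NF1 and 0.0780 for PKO-NF1 (0.0702 to 0.0865). Lama4 relative to Lama2 lay between 1.29 in PKO-NF1 and 1.65 in WT. Itgb8 relative to Itgav was 0.739 in WT, 0.533 in NF1, 0.403 in PKO and 0.288 in PKO-NF1. The transcripts of Itgb4 and Itgb1 have GC contents of 60.0% and 44.9%, and those of Lama5 and Lama4 lengths of 11388 and 6046 nucleotides. Between libraries, Itgb4 over Itgb1 differed by log2 -0.75 for NF1 vs WT and -2.03 for PKO-NF1 vs PKO, and by 0.18 and -0.77 with trends over length and GC removed. It differed by -0.08 in PKO vs WT and -1.36 in PKO-NF1 vs NF1, and by 0.58 and -0.38 with the trends removed. The order with WT highest thus did not hold without the trends. Itga6 over Itgb4 differed by 0.21 and 1.43 in the 2 Nf1 pairs, and by -0.43 and 0.54 with the trends removed. Its sign in NF1 vs WT thus changed. Lama5 over Lama4 differed by -0.62 and -0.81, and by -0.21 and 0.087 with the trends removed. Itgb8 over Itgav differed by -0.87 in PKO vs WT and -0.89 in PKO-NF1 vs NF1, and by -0.75 and -0.71 with the trends removed.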
